A study of Mus musculus with 8 samples.

Results

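The 39 genes described here encode subunits of the mitochondrial respiratory chain and lie in the nuclear genome. They were chosen by name, but with earlier results of these data known. The list holds 20 subunits of complex I, 4 of complex II, 6 of complex III including Cyc1, the electron carrier cytochrome c (Cycs), and 8 of complex IV. All 39 were measured, among 22224 genes tested in all. The rule found 50 probes for them, of which 48 were kept, and the brightest probe stood for each gene. Every one of these 39 probes was well above background in both channels of all 8 arrays, and none was saturated.

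Liver RNA came from ICR scid mice of 8 wk, which carry an immune deficiency in every group. Each array set a pool of livers against another pool in 2 colours, and each comparison had 2 arrays made from different pools with the dyes exchanged. In the first comparison, untreated males were set over untreated females, with 5 livers in each pool by the labels, although the series text counts 1 more female. Adenovirus carrying Cux2, a homeobox transcription factor, was set over the control adenovirus Adeno-CMV in the other 3. In males at day 5 the pools held 6 against 6 and 6 against 7 livers. In females at day 5 they held 4 against 4 and 4 against 3, and in males at day 3 they held 5 against 5 and 6 against 6. Pools average their animals, so n is 2 arrays for each comparison and the spread between single mice was not measured. The virus can reach any liver cell, and the cells that took it up are not given in the sources used here.

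The respiratory chain sits in the inner mitochondrial membrane. Complex I takes electrons from NADH and complex II from succinate, and both pass them through ubiquinone to complex III. Cytochrome c then carries them to complex IV, which reduces oxygen, and the proton gradient made on the way drives ATP synthesis by complex V. Hepatocytes are rich in mitochondria and use this ATP for gluconeogenesis, urea synthesis and protein export. Most subunits are encoded in the nucleus and imported, and a few core subunits are made from mitochondrial DNA.

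Promoters of such genes are known targets of NRF1, of GABPA, of YY1 and, for cytochrome c, of CREB. RefSeq promoter windows on GRCm38.p6, from 250 bases before to 50 after the start, were at hand for 29 of the 39 genes. An open-centred NRF1 form, GCGC and GCGC with any 2 bases between, was found on either strand in 7 of the 29 (24.1%), against 7.00% of the 27025 genes with a window. CCGGAAG, a GABPA core, was in 6 (20.7% against 9.93%), and AAGATGGCG, a YY1 form, was in 3 (10.3% against 1.64%). The strict NRF1 form, in which those 2 bases are AT and which the open form includes, was in Uqcrc1 alone among the 29 (3.45% against 1.07%). TGACGTCA, a CREB element that was added after values had been seen, was in 3 (10.3% against 2.03%), Ndufa10, Uqcrfs1 and Cycs. The upstream stretches below are shown because their genes carry the open NRF1 letters before the start or, for Cycs, because it was the gene that went against the others at day 3. Capitals mark the matched letters, the minus strand is read 5′ to 3′, and in Sdhd the second capital run is CCGGAAG read from the other strand.
Sdha, chr13:74350241-74350350, minus strand: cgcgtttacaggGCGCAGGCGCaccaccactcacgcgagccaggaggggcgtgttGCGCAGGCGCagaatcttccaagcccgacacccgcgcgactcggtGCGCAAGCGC
Sdhd, chr9:50603850-50603939, minus strand: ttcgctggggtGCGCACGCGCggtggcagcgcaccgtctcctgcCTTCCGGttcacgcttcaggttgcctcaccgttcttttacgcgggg
Ndufa5, chr6:24527691-24527750, minus strand: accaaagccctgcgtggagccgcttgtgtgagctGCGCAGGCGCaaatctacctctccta
Ndufa8, chr2:36049339-36049398, minus strand: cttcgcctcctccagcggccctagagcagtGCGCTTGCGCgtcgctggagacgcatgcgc
Ndufv2, chr17:66101560-66101619, minus strand: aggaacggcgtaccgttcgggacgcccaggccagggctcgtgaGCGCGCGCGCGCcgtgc
Cycs, chr6:50566570-50566749, minus strand: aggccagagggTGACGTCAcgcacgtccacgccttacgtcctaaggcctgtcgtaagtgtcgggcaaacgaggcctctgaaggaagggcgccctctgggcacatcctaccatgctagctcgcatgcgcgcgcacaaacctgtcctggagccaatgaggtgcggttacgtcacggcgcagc
Sdha held 3 such runs between positions -98 and -1 before its start, and Ndufv2 held 2 that overlap. The 7 genes with the open NRF1 letters spanned fitted ratios of -0.75 (Sdha) to -0.25 (Ndufa5) at day 3, so carriers of these letters lay at both the low and the mild end of the set. A match describes letters in this window and was not tested as a binding site.

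Ratios are log2 values of numerator over denominator, fitted by limma with the dye as a term, and a gene is said to have risen or fallen where its p adjusted by Benjamini-Hochberg over all 22224 genes was under 0.05. Errors are the model's standard errors (SE), 0.0598 to 0.153 over these genes with a median of 0.0702. Of 15 hepatocyte markers listed, 14 were measured, and all 14 were well above background in both channels on 8 arrays. The probe of Cux2 itself read -1.88 for untreated males over females, 0.60 in males at day 5 and 0.49 in males at day 3, but -0.61 in females at day 5. Whether that probe lies in the stretch that the virus carries is not given in the sources used here, so it need not read the transgene. Exocrine pancreas genes had a median ratio of 3.04, 4.12 and 2.57 on 3 single arrays (untreated replicate 2, female replicate 1 and male day 3 replicate 2), while skeletal muscle genes reached -1.31 on female replicate 2. In whole liver, fewer cells of a type and less RNA per cell cannot be told apart.

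The labels of the female arrays give the sex of both channels as female, but their stated aim speaks of males. In the 4 pools of those arrays the brightest probe of Xist, the RNA of the inactive X chromosome, had log2 signals of 13.13 to 14.10. The brightest probe of the Y-linked Ddx3y was not well above background there. A dimmer Ddx3y probe was, in the Adeno-Cux2 pool of replicate 1 (6.34) and the Adeno-CMV pool of replicate 2 (6.27). In the 8 pools labelled male at day 5 and day 3, the brightest Ddx3y probe ran from 13.06 to 13.60. The brightest Xist probe was not well above background in 7. A dimmer Xist probe was, at 6.08, in the Adeno-Cux2 pool of male day 5 replicate 1. The Adeno-CMV pool of male day 3 replicate 2 stood apart, with Xist at 9.29 beside 6.01 in the Adeno-Cux2 pool of the same array, and all 4 Xist probes were well above background there. That control pool thus goes in part against its label as male, and the day 3 counts of the 39 genes are given with and without that array. On the untreated arrays the brightest Xist probe was well above background in the male pools too (6.16 and 6.76, beside 12.13 and 12.46 in the female pools). The brightest Ddx3y probe was so in the female pools (6.89 and 7.24, beside 12.61 and 13.17 in the male pools).

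At day 3 after the virus, the respiratory chain genes were lower almost throughout in male liver. Of 39, 36 fell and 1 rose, against 20.3% lower and 23.7% higher among all genes tested. Their median ratio was -0.47, beside -0.00 for all genes, and 36 of them were below 0 on both arrays, against 39.3% of all genes. Among the 1401 genes as bright as most of these (mean log2 signal of at least 14, a limit chosen after signals were seen), 41.7% fell. The falls were spread over the complexes: 19 of 20 genes of complex I (median -0.50), 4 of 4 of complex II (-0.57), 5 of 6 of complex III (-0.54) and 8 of 8 of complex IV (-0.35). Without replicate 2 of this comparison the test called 15 lower in place of 36, with a median of -0.38, and the lone array was then assumed to vary like the other groups. By the log ratio of the scanner software 26 fell, among them 14 of complex I and 3 of complex IV. With median centring of the arrays in place of loess, 31 fell, and the calls over all genes changed from 5275 higher and 4509 lower to 6083 and 2793.

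**Figure D1:**
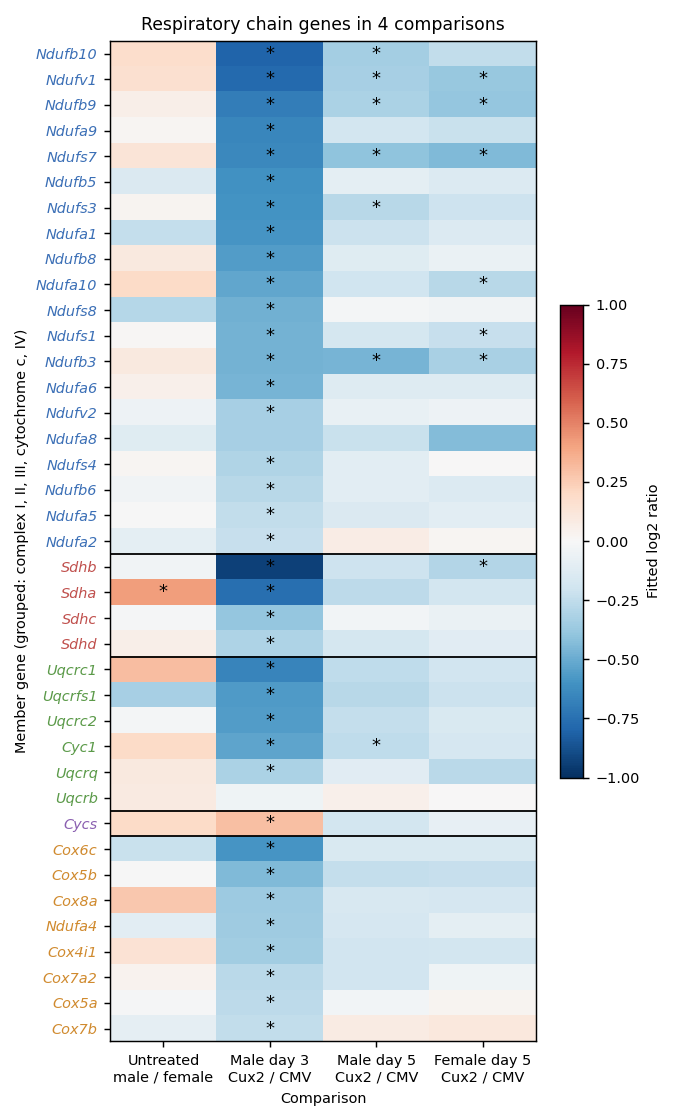
Fitted log2 ratio of each of the 39 genes (rows, grouped by complex) in the 4 comparisons (columns), with red for higher and blue for lower in the numerator and an asterisk where the adjusted p was under 0.05. The male day 3 column holds 36 blue asterisks and the red one of Cycs, while both day 5 columns hold 7 and the untreated column 1.

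Complex I showed its largest falls in Ndufb10, Ndufv1 and Ndufb9. Ndufb10, an accessory subunit of the membrane arm (probe at chr17:24449674-24449733 on mm8), read -0.85 and -0.76 on the arrays of replicates 1 and 2, and fell 1.75-fold (-0.80, SE 0.0696, adjusted p = 0.000185). Ndufv1, the core subunit that binds NADH and the flavin, read -0.73 and -0.82 and fell 1.71-fold (-0.78, SE 0.0613, adjusted p = 0.00013). Ndufb9, another membrane-arm subunit, read -0.64 and -0.74 and fell 1.61-fold (-0.69, SE 0.0734, adjusted p = 0.000437). In each of the 3 both arrays lay well below 0, and they differed from each other by far less than from 0. The iron-sulfur core subunits Ndufs7 (-0.64), Ndufs1 (-0.48), Ndufs8 (-0.48) and Ndufv2 (-0.33) fell too, as did the core subunit Ndufs3 (-0.60). The mildest fall of the complex was in Ndufa2 (-0.23, adjusted p = 0.0187), a small subunit of the matrix arm. Ndufa8, an accessory subunit, read -0.24 and -0.42 and did not pass (-0.33, SE 0.153, adjusted p = 0.128), and its SE was the largest in the set. A second Ndufb8 probe, 1637 bases away and far dimmer, read 0.17 where the brightest read -0.56, and the mean over its probes did not pass.

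All 4 subunits of complex II, which is also an enzyme of the citric acid cycle, fell. Sdhb, the iron-sulfur subunit (probe at chr4:140238675-140243242 on mm8), read -0.99 and -0.88 and fell 1.92-fold (-0.94, SE 0.0787, adjusted p = 0.000165), the lowest value of the 39. Sdha, the flavoprotein that oxidises succinate (probe at chr13:74794310-74794369 on mm8), read -0.84 and -0.67 and fell 1.69-fold (-0.75, SE 0.103, adjusted p = 0.0013). The membrane anchors changed less: Sdhc read -0.27 and -0.50 (-0.39, adjusted p = 0.00279) and Sdhd -0.38 and -0.23 (-0.31, adjusted p = 0.0108). The catalytic pair thus lay below both anchors on each array, although ratios of different genes come from different probes. A second Sdha probe, 5610 bases away, read -0.88.

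In complex III the core proteins Uqcrc1 and Uqcrc2, the Rieske iron-sulfur protein Uqcrfs1 and cytochrome c1 (Cyc1) formed a tight group. Uqcrc1 (probe at chr9:108806516-108806575 on mm8) read -0.70 and -0.61 and fell 1.58-fold (-0.66, SE 0.0901, adjusted p = 0.00132), and Uqcrc2, Uqcrfs1 and Cyc1 fell by 0.56, 0.56 and 0.53. Uqcrq, a small subunit, fell by 0.32, but its arrays stood apart at -0.03 and -0.60. Replicate 1 was above replicate 2 for this gene in the other comparisons as well, and its fitted dye term was 0.20. Uqcrb, the small ubiquinone-binding subunit, was the exception, at -0.09 and 0.01 (-0.04, SE 0.0646, adjusted p = 0.653).

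Complex IV had the mildest median of the complexes. Cox6c was lowest (-0.61 and -0.58, fitted -0.59, SE 0.097, adjusted p = 0.00286), and Cox7b highest (-0.19 and -0.31, fitted -0.25, SE 0.0664, adjusted p = 0.0221). Between them were Cox5b (-0.44), Cox8a (-0.36), Ndufa4 (-0.35), which was first assigned to complex I, Cox4i1 (-0.34), Cox7a2 (-0.27) and Cox5a (-0.26). For several of these the replicate 2 array carried most of the difference: Cox5a read 0.05 and -0.57, Cox7a2 -0.06 and -0.48, and Ndufa4 -0.12 and -0.58. These genes parted in the same order at day 5, where Cox5a read 0.14 and -0.19 in males and 0.24 and -0.17 in females. Their fitted dye terms were 0.20 (Cox5a), 0.14 (Cox7a2) and 0.19 (Ndufa4), so the gap is not particular to the day 3 arrays. The median of the complex was -0.20 on replicate 1 and -0.48 on replicate 2, while that of complex I was -0.50 on both. Without replicate 2, Cox4i1, Cox5a, Cox5b, Cox6c, Cox7a2, Cox7b, Cox8a and Ndufa4 did not pass.

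**Figure D2:**
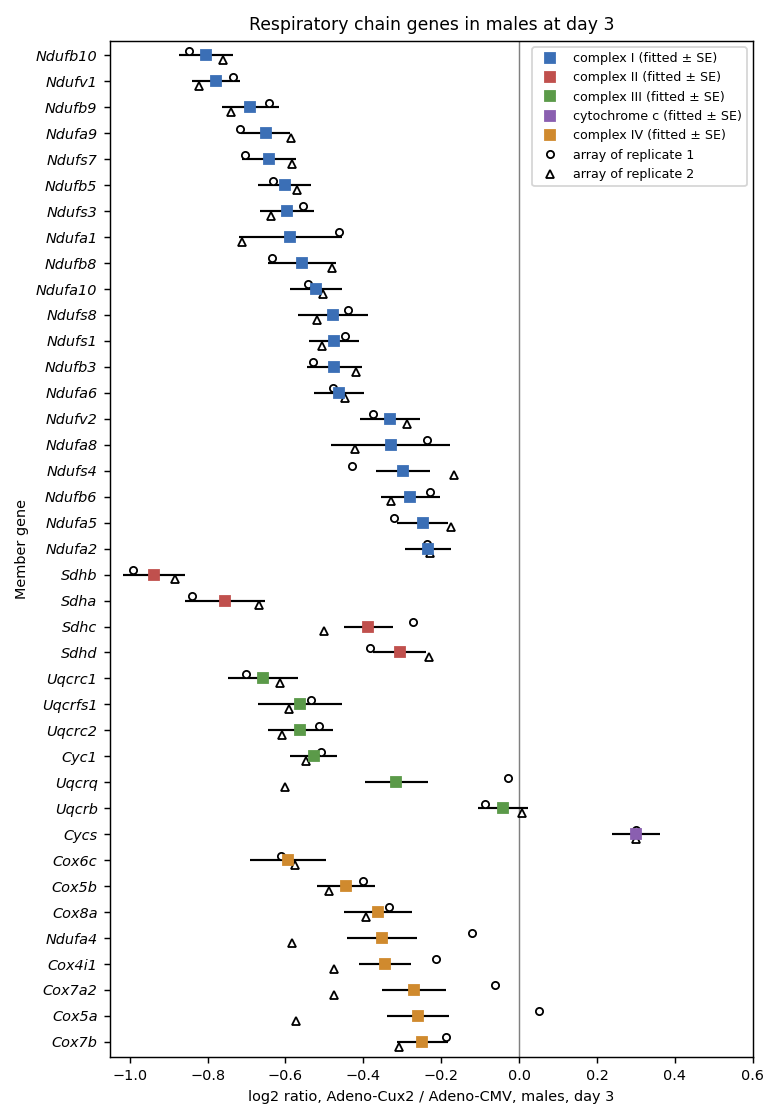
Log2 ratio of Adeno-Cux2 over Adeno-CMV in males at day 3 (horizontal axis) for each gene (rows), with the 2 arrays as open symbols and the fitted value ± SE as a coloured square. Sdhb is lowest at -0.94, Cycs alone lies clearly above 0 at 0.30, and the 2 arrays part most in Cox5a and Uqcrq.

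Cytochrome c was the gene that rose. Its brightest probe (chr6:50494842-50494901 on mm8) read 0.30 on both arrays and rose 1.23-fold (0.30, SE 0.0614, adjusted p = 0.00754). However, 2 other Cycs probes, 713 and 733 bases from it, read -0.16 and -0.13 at day 3. Those 2 overlap each other, so they are not separate readings of the gene. At day 5 in males the 3 probes read -0.18, -0.30 and -0.26, and in untreated males over females 0.19, 0.19 and 0.20, so they parted at day 3 and in females at day 5 (-0.08, -0.26 and -0.27). The mean over the probes, in which the overlapping pair counts as 2, was 0.01 at day 3 and did not pass (adjusted p = 0.946). Whether the probes read different transcript ends was not tested.

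**Figure D3:**
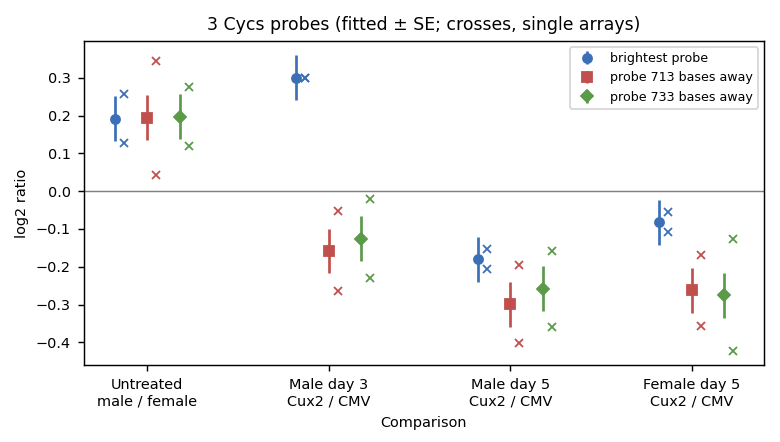
Log2 ratio (vertical axis) of the 3 Cycs probes in the 4 comparisons, with filled symbols for the fitted value ± SE and crosses for single arrays. Only the brightest probe lies above 0 in males at day 3 (0.30, against -0.16 and -0.13), while all 3 agree in sign elsewhere.

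At day 5 the shift in males was smaller. Of 39 genes, 7 fell and 0 rose, against 4.95% lower and 13.9% higher among all genes. At unadjusted p under 0.05, 19 of 39 passed, beside 18.8% of all genes at the stricter adjusted limit. The median was -0.18 beside 0.01 for all genes, and 32 of 39 were below 0 on both arrays, against 34.0% of all genes. Of bright genes 11.1% fell. Complex I, which holds 20 of the 39 genes, gave 6 of the 7 calls, but its median (-0.18) was close to those of complexes II (-0.19), III (-0.24) and IV (-0.17). Ndufb3, an accessory subunit of the membrane arm, read -0.58 and -0.35 and fell 1.38-fold (-0.47, SE 0.07, adjusted p = 0.00477). Ndufs7, which holds the iron-sulfur cluster next to ubiquinone, read -0.44 and -0.37 and fell 1.32-fold (-0.40, SE 0.0701, adjusted p = 0.00884). These 2 genes lay below 0 on every array of the 3 Adeno-Cux2 comparisons, as did many other members, such as Ndufv1, Ndufb9, Ndufb10 and Cyc1.

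The other falls in males at day 5 were in Ndufb10 (-0.40 and -0.29, fitted -0.34), Ndufv1 (-0.28 and -0.39, fitted -0.33), Ndufb9 (-0.38 and -0.26, fitted -0.32), Ndufs3 (-0.35 and -0.21, fitted -0.28) and Cyc1 (-0.24 and -0.26, fitted -0.25). Their adjusted p ran from 0.0109 (Ndufv1) to 0.0342 (Ndufs3), and the call of Cyc1 was lost in 10 of 16 alternatives. The highest value of complex I was in Ndufa2 (0.08, adjusted p = 0.455). No gene of complexes II or IV passed: Sdha was lowest in complex II (-0.26) and Sdhc highest (-0.03), with Sdhb at -0.21 and Sdhd at -0.17, and complex IV ran from Cox5b (-0.24) to Cox7b (0.08). In complex III Uqcrfs1 was lowest (-0.27, adjusted p = 0.138) and Uqcrb highest (0.05). Cycs read -0.21 and -0.15 (-0.18, adjusted p = 0.0953). Without either array of this comparison 0 were called, 2 fell by the log ratio of the scanner software, and 13 fell with no background subtraction.

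Females at day 5, on the arrays labelled Adeno-Cux2, gave a like picture with 7 lower and 0 higher, against 6.31% lower and 12.8% higher among all genes. At unadjusted p under 0.05, 15 of 39 passed, beside 19.1% of all genes at the stricter adjusted limit. The median of the 39 was -0.15 beside 0.00 for all genes. Of the 39, 28 lay below 0 on both arrays, against 32.4% of all genes, and 14.7% of bright genes fell. Ndufs7 read -0.56 and -0.32 and fell 1.36-fold (-0.44, SE 0.0701, adjusted p = 0.00694). Ndufb9 read -0.45 and -0.32 and fell 1.31-fold (-0.39, SE 0.0734, adjusted p = 0.013). Ndufv1 read -0.30 and -0.45 and fell 1.30-fold (-0.38, SE 0.0613, adjusted p = 0.00756). All 3 also fell in both male comparisons, and Ndufb3 (-0.45 and -0.19, fitted -0.32) was the fourth gene to do so.

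Sdhb (-0.44 and -0.15, fitted -0.29, adjusted p = 0.0457), Ndufa10 (-0.29 and -0.26, fitted -0.28, adjusted p = 0.0313) and Ndufs1 (-0.28 and -0.19, fitted -0.23, adjusted p = 0.048) completed the falls in females. These 3 calls were the least stable of the 7: of 16 alternatives, 12 lost that of Sdhb, 11 that of Ndufs1 and 9 that of Ndufa10. Ndufa8 had a low value without passing (-0.48 and -0.40, fitted -0.44, adjusted p = 0.101). Ndufa2 was highest in complex I (0.02), and the rest of complex II was Sdha (-0.19), Sdhd (-0.11) and Sdhc (-0.06). Complex III ran from Uqcrq (-0.27) to Uqcrb (0.01), complex IV from Cox5b (-0.23) to Cox7b (0.11), and Cycs was at -0.08. The count was 0 without replicate 1, 1 without replicate 2, 4 without the replicate block, 2 by the software's log ratio and 12 with no background subtraction or with the mean over probes. Skeletal muscle genes had 14 of 28 lower in this comparison with medians of -0.49 and -1.31 on the 2 arrays, and their part in the result was not tested.

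Untreated males and females differed little in these genes. Of 39, 1 was higher in males and 0 lower, against 4.93% higher and 6.14% lower among all genes. At unadjusted p under 0.05, 10 of 39 passed, beside 11.1% of all genes at the stricter adjusted limit. The median was 0.02 beside -0.01 for all genes, and it turned to -0.0047 with median centring and to -0.0023 with the mean over probes. Sdha read 0.62 and 0.22 and was 1.34-fold higher in males (0.42, SE 0.103, adjusted p = 0.0497), but its second probe read 0.08 and 13 of 16 alternatives lost the call. Uqcrc1 was next (0.37 and 0.25, fitted 0.31, adjusted p = 0.0777). The 2 arrays gave opposite signs for 16 of the 39, while 7 lay below 0 and 16 above 0 on both. Among all genes 31.5% lay below 0 and 28.7% above 0 on both arrays.

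The lowest values between the sexes were in Uqcrfs1 (-0.62 and -0.06, fitted -0.34), Ndufs8 (-0.48 and -0.08, fitted -0.28) and Cox6c (-0.49 and 0.04, fitted -0.23), each led by replicate 1. In complex I Ndufa10 was highest (0.19), in complex IV Cox8a (0.27), and Cycs was at 0.19. In complex II Sdhd was at 0.06, Sdhc at -0.01 and Sdhb at -0.04. Without replicate 2 of this comparison 3 were called higher and 5 lower, and without replicate 1 none was called higher.

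**Figure D4:**
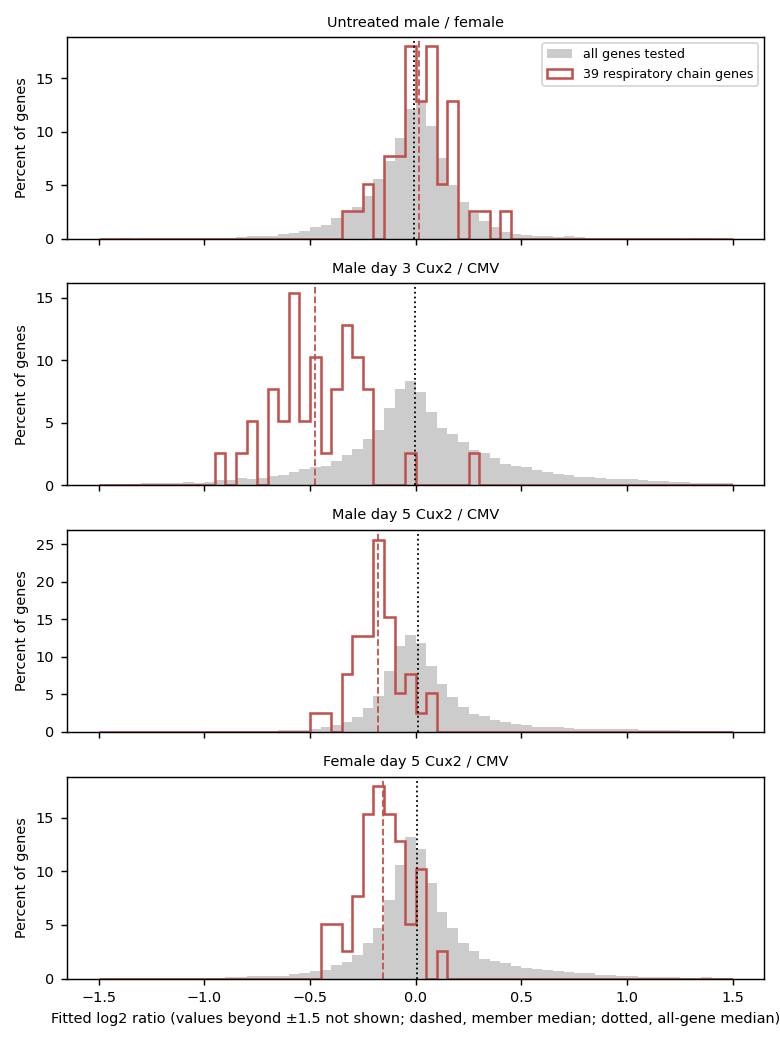
Percent of genes (vertical axis) by fitted log2 ratio (horizontal axis) in the 4 comparisons, in grey for all genes tested and in red outline for the 39 respiratory chain genes, with their medians as dotted and dashed lines. The red outline lies on the grey one in the untreated comparison (0.02 and -0.01) and left of it in males at day 3 (-0.47 and -0.00).

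The responses were then compared with each other in the same fit. In males 38 of 39 genes were lower at day 3 than at day 5, with a median difference of 0.30 for day 5 minus day 3, beside 0.02 for all genes. That difference passed for 6 genes with a higher day 5 value and for 1 with a lower one, against 8.10% and 4.82% of all genes. Sdhb differed most (0.73, SE 0.111, adjusted p = 0.0106), from -0.94 at day 3 to -0.21 at day 5. Ndufb5 (0.51, adjusted p = 0.0202), Ndufa9 (0.46, adjusted p = 0.0202), Ndufb10 (0.46, adjusted p = 0.0291), Ndufv1 (0.44, adjusted p = 0.022) and Sdhc (0.36, adjusted p = 0.0453) followed. Cycs went the other way, from 0.30 to -0.18 (-0.48, SE 0.0868, adjusted p = 0.0174), by its brightest probe. Ndufb3 read -0.47 at both times. For the same difference, 9 of 14 hepatocyte markers were higher at day 5 and 0 lower (median 0.72). Red blood cell markers had 11 of 13 higher and 0 lower (1.01), and stellate and fibroblast markers 1 of 14 higher and 1 lower (0.01). The part of these cells in the difference was not tested.

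Both day 5 arrays in males lay on 1 slide and both day 3 arrays on the other, with different versions of the scanner software, so time and slide cannot be told apart. Median centring left 1 gene higher at day 5, and moved the calls over all genes from 1801 higher and 1071 lower to 772 and 1323. The software's log ratio, or leaving out any array of either time, left 0, while 15 were higher without either untreated array. Between the sexes at day 5 the difference passed for 0 of 39 genes, against 0.207% called among all genes, and 0 of 39 had an unadjusted p under 0.05. The median difference, female minus male, was 0.01, and single genes ran from -0.21 (Ndufa8) to 0.15 (Cox7a2), with a median SE of 0.0993. Here too the arrays lay on different slides.

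**Figure D5:**
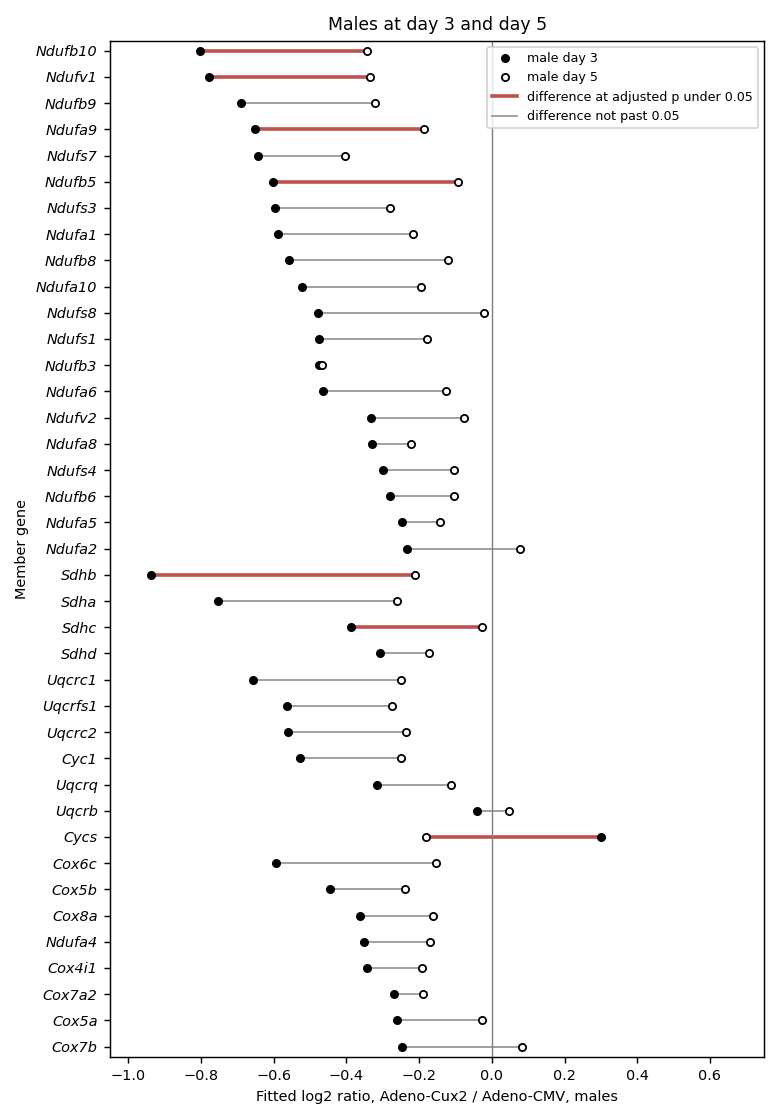
Fitted log2 ratio of Adeno-Cux2 over Adeno-CMV in males (horizontal axis) at day 3 (filled) and day 5 (open) for each gene (rows), joined by a line that is red where the difference passed an adjusted p of 0.05. All open points but that of Cycs lie to the right of the filled ones, with the longest red line in Sdhb (from -0.94 to -0.21).

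Other genes of the pathway came from lists of known members, also chosen with earlier results of these data known. At day 3 in males 20.3% of all genes fell and 23.7% rose, shares that stand beside the day 3 counts below. Among 16 further complex I subunits measured, 10 fell and 0 rose at day 3 in males (median -0.32), led by Ndufa13 (-0.50) and Ndufb4 (-0.42). Among 9 further subunits or isoforms of complexes III and IV, 6 fell, led by Uqcr11 (-0.65), Cox7c (-0.42) and Cox6a1 (-0.41). Cox6b2, an isoform of complex IV known from testis, rose 2.12-fold at day 3 (1.11 and 1.06, fitted 1.09, SE 0.0607, adjusted p = 4.22e-05). It was also higher at day 5 in males (0.25) and females (0.39) and in untreated males over females (0.38). In each of these comparisons it was the only gene of the 9 called. Among all genes 13.9%, 12.8% and 4.93% were higher there. At day 5 the 16 complex I subunits gave 1 lower in males, Ndufa12 (-0.23), and 0 in females, which is near or below the 4.95% and 6.31% lower among all genes. In females 4 of 16 had an unadjusted p under 0.05, beside 19.1% of all genes at the stricter adjusted limit. Ndufv3 was higher in untreated males (0.25, adjusted p = 0.0499), the only 1 of the 16 called there. That is near the 4.93% higher among all genes.

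For complex V, the ATP synthase, 13 of 18 genes fell at day 3 (median -0.32), against 20.3% of all genes. The falls were led by Atp5k (-0.60), Atp5e (-0.55) and Atp5h (-0.48). Atpif1, whose protein inhibits ATP hydrolysis by the synthase, went the other way: it read 0.67 and 0.72 and rose 1.62-fold (0.69, SE 0.0628, adjusted p = 0.000221). It rose in both sexes at day 5 (0.24 each, adjusted p = 0.0426 each), and was lower in untreated males than females (-0.34, adjusted p = 0.0198). Between untreated sexes it was the only 1 of the 18 called, near the 6.14% lower among all genes. At day 5 Atp5k fell in males (-0.25) and Atp5h in females (-0.36), and Dmac2l rose in males (0.28). Among all genes 4.95% fell and 13.9% rose in males, and 6.31% fell and 12.8% rose in females.

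Assembly factors, which build the complexes, had 18 of 37 lower and 2 higher at day 3 (median -0.24). Among all genes 20.3% were lower and 23.7% higher. The complex I factors Ndufaf1 (-0.78 and -0.86, fitted -0.82, adjusted p = 0.000269), Ecsit (-0.72) and Nubpl (-0.68) led, and Coa3 (0.33) and Atpaf1 (0.24) rose. Ndufaf1 fell at day 5 as well, by 0.37 in males and 0.37 in females. In males at day 5 Ndufaf4 (-0.41) and Foxred1 (-0.24) were among 5 of 37 that fell, against 4.95% of all genes. In females 1 of 37 fell and 1, Coa3 (0.30), rose, against 6.31% lower and 12.8% higher among all genes. Between untreated sexes 1 of 37 was higher in males, Cox19 (0.31), and 2 were lower, Coa6 (-0.38) and Acad9 (-0.33), shares near the 4.93% and 6.14% of all genes.

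Of 20 regulators of respiratory genes, 11 fell and 3 rose at day 3, against 20.3% lower and 23.7% higher among all genes. Polg2, the accessory subunit of the mitochondrial DNA polymerase, read -1.41 and -1.10 and fell 2.38-fold (-1.25, SE 0.104, adjusted p = 0.000157). Ppargc1b, a coactivator of mitochondrial genes, read -1.52 and -0.69 (-1.10, SE 0.209, adjusted p = 0.00544), and Tfb1m, a mitochondrial rRNA methyltransferase, was at -0.67. Pprc1 (0.58), a related coactivator, Creb1 (0.44) and Sp1 (0.28) rose. At day 5 Polg2 (-0.51) and Esrra (-0.26) fell in males, and Tfb1m (-0.45), Tfam (-0.43), which packages mitochondrial DNA, and Gabpa (-0.29) in females. Those 2 and 3 of 20 stand beside 4.95% and 6.31% lower among all genes. Ppargc1a, the coactivator best known for inducing these genes, was lower in untreated males than females (-0.72 and -1.09, fitted -0.90, SE 0.133, adjusted p = 0.00947). It was the only regulator of the 20 called there, against 4.93% higher and 6.14% lower among all genes.

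The citric acid cycle was mixed, with 8 of 16 lower and 2 higher at day 3, against 20.3% lower and 23.7% higher among all genes. Suclg2 (-0.67), Idh3b (-0.63) and Pdhb (-0.59) fell, and Idh3a (0.60), which forms an enzyme with Idh3b, and Mdh2 (0.32) rose. At day 5 Idh3b and Pdhb fell in both sexes (-0.23 and -0.45 in males, -0.35 and -0.39 in females), and Suclg2 fell in females (-0.49). Those 2 and 3 of 16 stand beside 4.95% and 6.31% lower among all genes. In untreated males Ogdh was higher (0.29) and Dld lower (-0.30), 1 each of 16, against 4.93% higher and 6.14% lower among all genes. Of 73 genes of the mitochondrial ribosome, which translates the mitochondrially encoded subunits, 31 fell and 3 rose at day 3 (median -0.19). Among all genes 20.3% fell and 23.7% rose. The falls were led by Mrps5 (-0.73), Mrps35 (-0.59) and Mrps27 (-0.56), and Mrps25 (0.39) was highest. At day 5, 2 of the 73 fell in males, and 4 fell and 1 rose in females, no more than the 4.95% lower in males and the 6.31% lower and 12.8% higher in females among all genes. Mrpl49 fell in both (-0.25 and -0.30). On the day 3 array of replicate 1 alone, the medians were -0.30 for the further complex I subunits, -0.22 for those of complexes III and IV, -0.19 for complex V, -0.26 for assembly factors, -0.37 for regulators, -0.27 for the citric acid cycle and -0.17 for the mitochondrial ribosome.

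Only 3 of 13 mitochondrially encoded genes were measured. ND4L (-0.78), CYTB (-0.74) and COX2 (-0.48) passed as lower at day 3, but their arrays split by dye orientation: CYTB read -0.01 on replicate 1 and -1.48 on replicate 2. The same split stood in the untreated comparison, where the list's medians were 0.87 and -0.67. Of the 3 heart and muscle isoforms, Cox7a1 rose at day 3 (0.64) and was lower in untreated males (-0.41). Cox8b was lower in females at day 5 (-1.29 and -3.33, fitted -2.31, adjusted p = 0.039), in the comparison whose skeletal muscle genes were lower too. Each of these calls was 1 of 3. Among all genes 23.7% were higher at day 3, 6.14% lower in untreated males and 6.31% lower in females at day 5.

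Markers of several cell types had more calls at day 3 than the 23.7% higher and 20.3% lower among all genes. Of 14 hepatocyte markers, 9 were lower and 2 higher (median -0.58), of 13 red blood cell markers 9 lower and 0 higher (-0.61), of 13 neutrophil markers 12 higher and 0 lower (1.48), and of 14 stellate and fibroblast markers 10 higher and 1 lower (1.21). Of 15 macrophage markers 9 were higher and 5 lower (0.41), and of 12 cholangiocyte markers 6 were higher and 1 lower (0.65). T and natural killer cell markers, counted as 1 list that does not tell these cells apart, were 10 of 15 higher and 1 lower (0.50). Endothelial markers, with 3 of 14 higher and 2 lower (0.11), were near the shares of all genes. Their part in the day 3 result was not tested. At day 5 the hepatocyte markers were 5 higher and 2 lower in each sex, with medians of 0.22 in males and 0.24 in females. These medians split by array, at 0.34 and -0.02 on replicates 1 and 2 in males and 0.43 and -0.06 in females. The medians of the 39 genes were below 0 in both sexes. Among all genes 13.9% were higher in males at day 5 and 12.8% in females. Macrophage markers at day 5 were 13 of 15 higher in males (1.41) and 11 of 15 in females (0.85), neutrophil markers 12 of 13 in each (2.25 and 1.60), and stellate and fibroblast markers 12 of 14 in each (0.88 and 0.75). T and natural killer cell markers were 10 of 15 higher in males (0.53) and 7 in females (0.34), cholangiocyte markers 5 of 12 (0.26) and 7 (0.55), endothelial markers 5 of 14 (0.20) and 7 (0.28), and red blood cell markers 6 of 13 in each (0.34 and 0.25), with 3 and 1 lower. Skeletal muscle genes in males at day 5 had 1 of 28 called, but 25 lay above 0, with medians of 0.18 and 0.83 on the 2 arrays. The part of these cells in the day 5 results was not tested.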

How the data were processed

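Liver RNA pools were hybridised to 8 two-colour Agilent arrays, with 4 comparisons of 2 arrays each. The authors deposited scanner files that the file headers trace to Feature Extraction 9.5.3.1 (slide of the untreated and male day 5 pools) and 10.7.1.1 (slide of the female day 5 and male day 3 pools). Their intensity values, as deposited, are median pixel brightness per spot and local background with no normalization. Deposited log10 ratios of red to green are background-subtracted and dye-normalized by the software, per the file headers. Deposited flags are values of 0 or 1 for spots above background, saturated or outlying. The deposited value table holds those log10 ratios with replicate 2 reversed in sign (largest discrepancy 4.995e-06). RNA was extracted with Trizol and amplified, per the labels' protocols.

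From the intensities, normexp background correction (offset 50) and loess within each array gave log2 ratios, with control and outlier spots at weight 0 in the curve. Of 41174 probes, 33333 were kept as well above background in a channel on both arrays of a comparison. The brightest probe stood for a gene. Positions of probes are those of the array's annotation on mm8. limma 3.58.1 in R 4.3.3 fitted all arrays together with 4 comparisons and a dye term, on 3 residual degrees of freedom, and was tested on simulated data. Replicate 1 carried the numerator in red and replicate 2 in green, so the dye term is also the replicate block, and numbers do not otherwise pair pools. The number of arrays limits the precision. The p-values rest on 1 spread per gene, taken over all 8 arrays after the dye term and drawn by limma towards that of all genes. That spread mixes differences between pools and between arrays, and is not measured within each comparison. Median green signals ran from 343 to 442 over backgrounds of 289 to 315, and red ones from 430 to 512 over 327 to 342.5.

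The member genes and all lists were chosen with earlier results of these data known. Values are given for members past the threshold with both arrays of one sign (at most 6 per direction where many passed), for the highest and lowest of each complex, for all of complex II and Cycs, and for at most 3 called genes per list and direction, and Cox5a, Ndufa8, other members named beyond that, and the sex-linked Xist and Ddx3y were picked after values were seen. Alternatives were the background, the ratio source, centring, the filter, the dye term, the variance trend, the mean over probes, the slide and leaving out each array.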

Additional observations from a re-analysis of the deposited data

Results flagged for a closer look

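For 7 of the 39 genes the response in males differed between day 5 and day 3 by a test of the difference itself (limma, Benjamini-Hochberg over all genes, 2 arrays at each time). Day 5 minus day 3 was 0.73 for Sdhb (adjusted p = 0.0106), 0.51 for Ndufb5 (adjusted p = 0.0202), 0.46 for Ndufa9 (adjusted p = 0.0202), 0.46 for Ndufb10 (adjusted p = 0.0291), 0.44 for Ndufv1 (adjusted p = 0.022) and 0.36 for Sdhc (adjusted p = 0.0453), each lower at day 3. It was -0.48 for Cycs (adjusted p = 0.0174), which was higher at day 3 by its brightest probe. Among all genes 12.9% passed this test, 8.10% with a higher and 4.82% with a lower day 5 value. By the software's log ratio all 7 calls were lost. Time and slide cannot be told apart in these values.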

How the results depend on the processing

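No called result of the 39 genes reversed, although the untreated median, near 0, changed sign under 2 settings, and the counts moved with the settings. The cause was not tested. With no background subtraction, 3 genes were higher in untreated males, 13 fell in males and 12 in females at day 5, and the day 3 median was -0.43. By the software's log ratio, 10 of the 36 falls at day 3 were lost (Ndufa2, Ndufa4, Ndufa5, Ndufb6, Ndufs4, Ndufv2, Cox5a, Cox7a2, Cox7b and Cox8a), 0 were higher in untreated males, 2 fell in males (median -0.20) and 2 in females at day 5, and 0 differed in either direction between day 5 and day 3. Median centring gave 0 higher in untreated males (median -0.0047), medians of -0.24 in males and -0.18 in females at day 5 with 4 lower in females, a median of -0.41 at day 3, and 1 gene higher at day 5 than day 3. The mean over all probes gave 0 higher and a median of -0.0023 in untreated mice, a median of -0.19 in males and 12 lower in females at day 5, and 0 higher at day 3 or lower at day 5 than day 3. No filter on dim probes, or an intensity trend, left 0 higher in untreated males. The fit with no replicate block left 4 lower in females, changed the count of calls among the 39 by at most 1.5 times in the other comparisons, and single genes lost there were Ndufb3, Ndufs1 and Sdhb in females and Ndufa4, Uqcrq, Cox5a and Cox7a2 at day 3, and Ndufb10 and Sdhc for day 5 minus day 3.

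Leaving out each array in turn gave 0 to 3 higher and 0 to 5 lower in untreated mice (median 0.017 to 0.043), 0 to 9 lower in males at day 5 (median -0.20 to -0.16), 0 to 9 lower in females (median -0.19 to -0.15), 15 to 37 lower and 0 to 1 higher in males at day 3 (median -0.53 to -0.38), and 0 to 15 higher and 0 to 1 lower for day 5 minus day 3. With 3 residual degrees of freedom, differences of the size of the SE were not detectable.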
